A study of Homo sapiens with 4 samples.

Results

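The genes described here encode ATP-dependent chromatin remodellers and their partner subunits. They are the protein-coding genes whose symbols begin with SMARCA to SMARCE, ARID or CHD followed by a number, together with 16 named subunits of the same complexes. The rule found 50 genes among the 60617 gene rows of the table, and 47 of them passed the filter on low counts, out of 17309 genes that did. Of the 50, 1 entered by its symbol alone. CHD9NB carries the name of its neighbour CHD9 and is not a member of the CHD remodeller family, so it is kept apart below. The ARID3, ARID4 and ARID5 genes share a DNA-binding domain with ARID1A and ARID2 but are not subunits of the remodelling complexes treated here.

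RNA was sequenced from A673, an established human Ewing sarcoma cell line that carries the EWSR1-FLI1 fusion. Cells received CBL0137 at 1 µM or DMSO, the solvent control, for 24 h, with 2 libraries in each condition. CBL0137 belongs to the curaxins, which bind DNA and trap the histone chaperone FACT on chromatin. Nothing in the labels says that the libraries of a condition came from separate cultures, so a p-value reflects library-to-library spread that may be technical, and all results come from 1 cell line. These are bulk libraries, in which fewer cells expressing a gene and less of its RNA per cell cannot be told apart.

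Remodellers use the energy of ATP to slide, space, evict or exchange nucleosomes. BAF complexes (the mammalian SWI/SNF family) open chromatin at enhancers and promoters and exist as canonical BAF, PBAF and non-canonical BAF, each marked by its own subunits. ISWI complexes space nucleosomes evenly, CHD3 and CHD4 are the motors of the NuRD complex, and INO80, SRCAP and EP400 power complexes that act on the histone variant H2A.Z. In Ewing sarcoma, BAF complexes are known to be recruited by the fusion protein to GGAA repeats, where they help to open chromatin.

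Gene counts summed to between 20483714 and 23373554 per library. The 8 Ewing sarcoma markers together reached 5450 to 5500 CPM (a gene's reads scaled to a fixed total of gene counts per library) in CBL0137 libraries and 5350 to 5410 in DMSO libraries. Most of the sum was CCND1 (2880 and 2900 CPM in CBL0137, 2930 and 2890 in DMSO libraries) and CD99. Marker CPM are scaled to library totals alone, without the TMM factors used below. On this scale only EWSR1 of the 8 stood lower in both CBL0137 libraries (295 and 283 CPM) than in the DMSO libraries (320 and 313). NKX2-2 and NR0B1 were among those higher, with NR0B1 at 239 and 241 CPM in CBL0137 libraries and 189 and 186 in DMSO libraries. The TMM factors were 1.027 and 1.017 in CBL0137 and 0.9788 and 0.9789 in DMSO libraries. TMM scaling would thus lower CBL0137 values relative to DMSO values. Small differences here, such as those of CCND1, CD99 and the sum, depend on the scaling. The 5 epithelial markers together stayed under 1 CPM in every library, with GRHL2 at 0, and of the 5 blood markers PTPRC had at most 1 read and CD3E none. Summed blood markers measured 7.62 to 7.95 CPM in CBL0137 libraries and 4.74 to 5.22 in DMSO libraries, most of it ITGAM. The endothelial marker CDH5 had 19 and 17 reads in CBL0137 libraries and 4 and 3 in DMSO libraries. The part of these low marker levels in the results below was not tested.

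Most remodeller genes moved little after 24 h of CBL0137. Calls required a fold change above 1.5 and, in edgeR's quasi-likelihood test, a p under 0.05 after Benjamini-Hochberg adjustment over all genes tested, and only called genes are said to have risen or fallen. By this rule 2 of 47 tested members (4.26%) were called, against a background of 9.61% of all genes tested. CHD2 fell and CHD9NB rose, so among the 46 members other than CHD9NB 1 fell and 0 rose. The background was 2.73% of genes for falls and 6.88% for rises. At an adjusted p under 0.05 and any fold, 17 members (36.2%) passed, 6 higher and 11 lower in CBL0137, against 36.5% of all genes tested, 17.5% higher and 19.0% lower. Above a mean level of 5 CPM, where 45 members stand, 1 member (2.22%) was called and 16 (35.6%) passed at any fold, against 6.37% and 46.9% of the 11339 genes there. The share passing at any fold was thus close to that of all genes tested and below that of genes at this level, a description with no test.

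The size of the changes was small. The median absolute log2 fold change was 0.09 over the 47 members and 0.22 over all genes tested. At the same minimum level of 5 CPM it was 0.09 for members and 0.17 for all genes. In 42 of 47 members (89.4%) the change stayed under 1.2-fold, as it did in 57.1% of all genes tested. The median signed change was 0.003 for members and 0.003 for all genes, and members ranged from -0.70 to 0.91 on the log2 scale. The CPM values of the conditions did not overlap in 30 of 47 members (63.8%), where 66.9% of all genes tested showed the same.

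**Figure D1:**
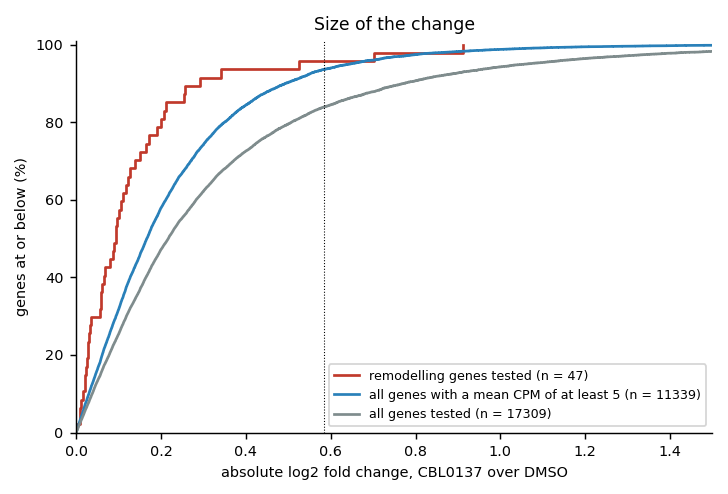
Cumulative share of genes (percent) at or below each absolute log2 fold change of CBL0137 over DMSO, for the 47 tested remodelling genes, for the 11339 genes whose mean reached 5 CPM and for all 17309 genes tested; the dotted line marks a 1.5-fold change. The line of the remodelling genes stands above the others at small changes, with medians of 0.09, 0.17 and 0.22.

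The direction of small changes depended on the scaling. With upper-quartile factors 10 members were higher and 7 lower at an adjusted p under 0.05, and library size alone gave the same counts, where TMM scaling gave 6 and 11. Over all genes the share of passing genes that were higher moved likewise, to 59.3% and 62.6% against 47.9% under TMM. PBRM1, BRD7, SMARCA4 and SMARCD1, lower under TMM, did not pass under either of these scalings, while BAZ1B, CHD9, DPF2 and SMARCD2, not passing under TMM, were higher under both. Only 5 members passed an adjusted p of 0.05 with 1 direction in all 14 fits that were run, namely CHD2, SMARCB1 and ACTL6A, which were lower, and DPF3 and SMARCA1, which were higher. In the 4 of these fits that leave out a library, 1 condition has a single library, which is assumed to vary like the 2 libraries of the other condition. The share of all genes tested that passed in all 14 fits is not given here, so the 5 members have no background beside them.

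**Figure D2:**
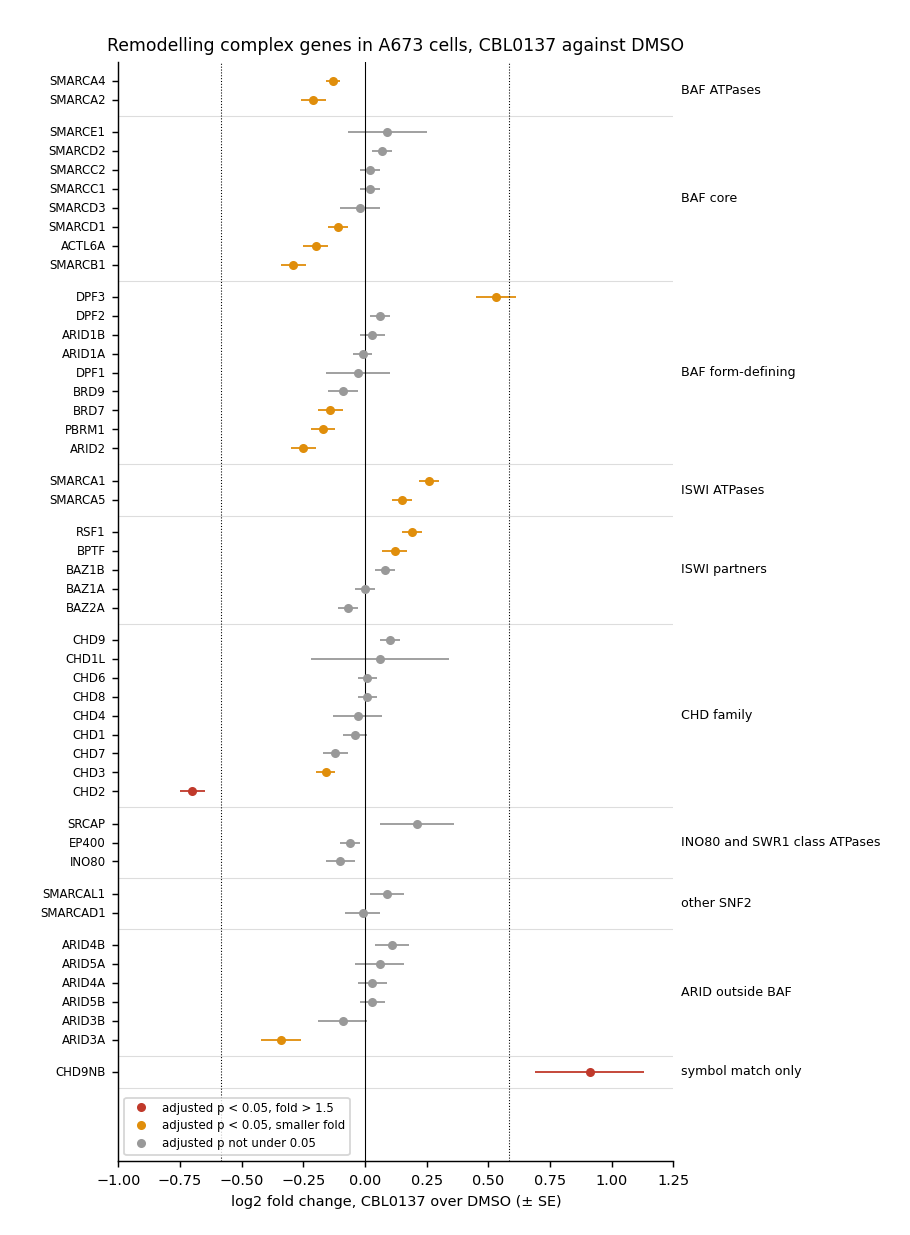
Log2 fold change of CBL0137 over DMSO with its standard error for the 47 tested members, grouped by role, from 2 libraries per condition; dotted lines mark a 1.5-fold change. CHD2 (-0.70) and CHD9NB (0.91) lie past the lines, DPF3 (0.53) lies just inside, and the other members lie between -0.34 and 0.26.

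CHD2 was the only remodeller ATPase that was called. CHD2 is a chromodomain remodeller that acts at transcribed genes and is dosage sensitive in the human brain. It measured 69.0 and 70.5 CPM in CBL0137 libraries, against 115 and 112 CPM in DMSO libraries. The lower DMSO library stood well above the higher CBL0137 library, and the log2 fold change was -0.70 ± 0.05 (SE; edgeR adjusted p = 1.7e-11). The deposited FPKM, which the authors derived with gene length and depth taken into account, gave 6.83 and 6.01 in CBL0137 against 11.7 and 10.1 in DMSO libraries, so both measures placed CHD2 lower. Over the 13 alternative fits its log2 fold change lay between -0.72 and -0.64. CHD2 (ENSG00000173575) lies on chromosome 15 from 93429433 to 93571226 in GRCh37, and 0.579% of its exon bases are shared with exons of other genes.

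DPF3 showed the largest increase among subunits of the complexes but stayed under the 1.5-fold limit. DPF3 is a double PHD finger subunit of BAF that reads acetylated and methylated histones and is known from heart and muscle development. It measured 27.9 and 30.7 CPM in CBL0137 libraries, against 20.8 and 19.9 CPM in DMSO libraries, with no overlap. The change was 1.44-fold (log2 0.53 ± 0.08, edgeR adjusted p = 1.7e-05), and FPKM gave 4.94 and 5.54 in CBL0137 against 3.27 and 2.88 in DMSO libraries. DPF3 passed the fold limit without CBL0137 replicate 1 (0.59), under library size alone (0.59) and on log2(FPKM + 1) (0.61, limma adjusted p = 0.031), and in the FPKM fit it was the member called higher in place of CHD9NB. Its relatives DPF2, the widespread form (log2 0.06 ± 0.04), and DPF1, a neuronal form (-0.03 ± 0.13), had edgeR adjusted p of 0.33 and 0.90. DPF3 (ENSG00000205683) lies on chromosome 14.

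The promoters of the members that passed in all fits are shown because these genes kept their direction and passed in all 14 fits. The sequences are the 250 bases before the transcript start in RefSeq, build GRCh38.p14, read 5′ to 3′ on the strand of the gene, and ACTL6A, which also passed, is named only. Capitals mark a CCAAT box (CCAAT, or ATTGG on the other strand) or a GC box (GGGCGG, or CCGCCC on the other strand), and TATAAA was also searched on both strands.
CHD2: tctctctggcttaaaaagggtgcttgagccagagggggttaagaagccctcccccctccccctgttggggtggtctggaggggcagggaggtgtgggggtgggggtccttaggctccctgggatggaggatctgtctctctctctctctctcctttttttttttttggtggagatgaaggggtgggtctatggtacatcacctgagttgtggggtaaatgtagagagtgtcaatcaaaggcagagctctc
SMARCB1: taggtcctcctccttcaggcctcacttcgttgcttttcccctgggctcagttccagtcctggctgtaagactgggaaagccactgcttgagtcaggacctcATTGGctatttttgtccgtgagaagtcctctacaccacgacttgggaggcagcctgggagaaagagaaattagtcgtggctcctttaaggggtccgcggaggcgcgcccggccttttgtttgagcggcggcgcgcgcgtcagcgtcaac
DPF3: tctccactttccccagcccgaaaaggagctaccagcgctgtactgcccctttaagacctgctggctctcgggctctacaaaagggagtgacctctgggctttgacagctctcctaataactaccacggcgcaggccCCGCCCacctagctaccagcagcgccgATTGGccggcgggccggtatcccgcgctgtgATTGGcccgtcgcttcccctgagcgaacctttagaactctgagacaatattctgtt
SMARCA1: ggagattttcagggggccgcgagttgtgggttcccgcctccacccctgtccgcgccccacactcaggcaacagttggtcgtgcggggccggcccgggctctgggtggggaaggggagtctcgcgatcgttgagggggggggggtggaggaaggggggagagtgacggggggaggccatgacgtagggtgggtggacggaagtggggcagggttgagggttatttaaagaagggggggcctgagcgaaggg
They lie at chr15:92900074-92900323 (plus strand) for CHD2, chr22:23786716-23786965 (plus) for SMARCB1, chr14:72894102-72894351 (minus) for DPF3 and chrX:129523491-129523740 (minus) for SMARCA1. For DPF3, 2 starts are listed and the first is shown. The CHD2 window holds 0 CG dinucleotides and 0 of the motifs searched. It rests on the 1 RefSeq start listed for CHD2. Its place relative to the gene start given above in GRCh37 was not compared. The other windows hold 16 CG dinucleotides each, with 2 CCAAT boxes and 1 GC box for DPF3, 1 CCAAT box for SMARCB1 and 0 of the motifs for SMARCA1. RefSeq windows were found for 38 of the 50 members, 62 windows in all, with a median of 21 CG dinucleotides against 11 over 35116 windows of all genes. A CCAAT box stood in 29.0% of member windows and 32.0% of all windows, a GC box in 58.1% and 42.6%, and TATAAA in 3.23% and 10.7%. These are letter matches and describe the windows only.

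**Figure D3:**
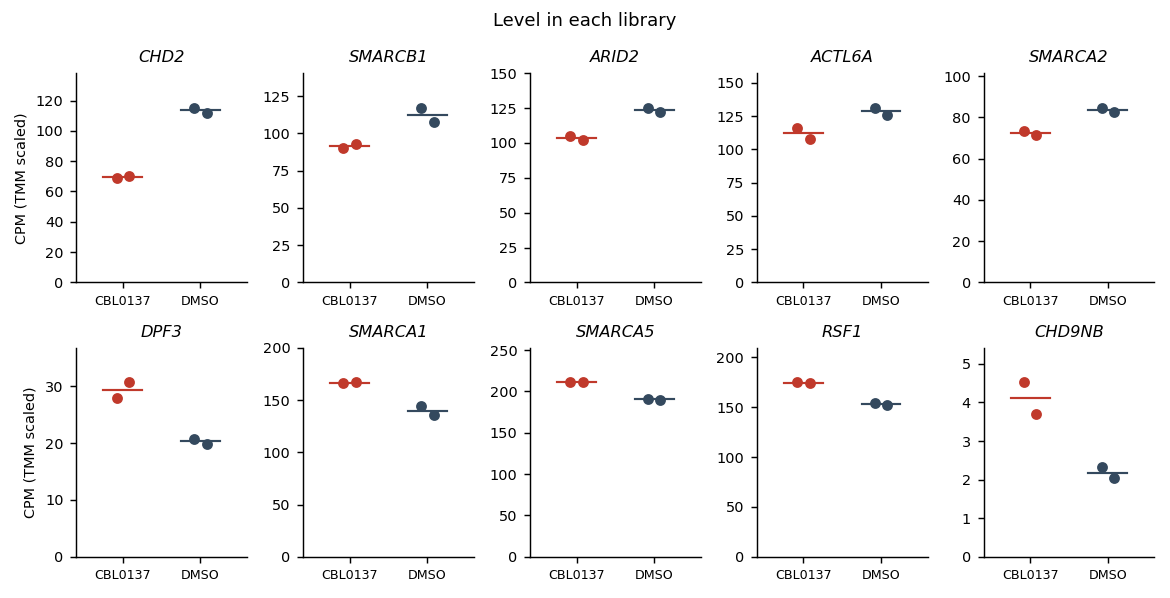
Level of 10 members in each library, in TMM-scaled CPM on axes that start at 0; points are libraries (CBL0137 left, DMSO right) and bars are the mean of 2. The top row shows members lower in CBL0137, with CHD2 furthest apart, and the bottom row shows members that were higher.

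Both BAF ATPases were slightly lower at an adjusted p under 0.05, as were 19.0% of all genes tested. SMARCA4 (BRG1) and SMARCA2 (BRM) are mutually exclusive motors of BAF complexes. SMARCA4 measured 379 and 390 CPM in CBL0137 libraries, against 419 and 420 CPM in DMSO libraries (log2 -0.13 ± 0.03, edgeR adjusted p = 0.0049). It did not pass with upper-quartile factors (edgeR adjusted p = 0.067) or library size alone (0.13). Its FPKM overlapped, at 26.8 and 44.3 in CBL0137 and 52.9 and 37.5 in DMSO libraries (limma adjusted p = 0.43). SMARCA2 measured 73.2 and 71.6 CPM in CBL0137 libraries, against 84.5 and 82.6 CPM in DMSO libraries (-0.21 ± 0.05, edgeR adjusted p = 0.0022). The CPM of the conditions did not overlap for either gene, as in 66.9% of all genes tested, and both changes were under 1.2-fold. The FPKM of SMARCA2 ran the other way, at 9.14 and 8.59 in CBL0137 libraries against 7.27 and 5.01 in DMSO libraries, a difference that did not pass the limma test on log2(FPKM + 1) (0.48, adjusted p = 0.13). SMARCA2 held 16.2% and 15.5% of the reads of the pair in CBL0137 libraries and 16.8% and 16.4% in DMSO libraries, while of their summed FPKM it held 25.4% and 16.2% in CBL0137 and 12.1% and 11.8% in DMSO libraries. The share thus lay on opposite sides by counts and by FPKM, and the cause was not tested.

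Among the core subunits, 3 of 8 tested were lower at an adjusted p under 0.05, 0 were higher and 5 did not pass. The 37.5% that passed stood near the 36.5% of all genes tested, of which 19.0% were lower and 17.5% higher. SMARCB1, the subunit whose loss defines rhabdoid tumours, measured 90.5 and 93.2 CPM in CBL0137 libraries, against 117 and 108 CPM in DMSO libraries (-0.29 ± 0.05, edgeR adjusted p = 4.6e-05). ACTL6A, an actin-related subunit of proliferating cells, measured 116 and 108 CPM in CBL0137 libraries, against 131 and 126 CPM in DMSO libraries (-0.20 ± 0.05, edgeR adjusted p = 0.0013). The conditions did not overlap for either, as in 66.9% of all genes tested. FPKM had the same sign, with SMARCB1 at 20.3 and 19.1 in CBL0137 against 26.8 and 26.0 in DMSO libraries. SMARCD1, an adaptor subunit, stood at 166 and 170 CPM in CBL0137 libraries and 178 and 184 CPM in DMSO libraries (-0.11 ± 0.04, edgeR adjusted p = 0.043). SMARCD1 no longer passed without CBL0137 replicate 1 (-0.09), DMSO replicate 1 (-0.13) or DMSO replicate 2 (-0.09). Nor did it pass under DESeq2 (adjusted p = 0.11) or on log2(FPKM + 1) (-0.03, limma adjusted p = 0.71). The same held in edgeR with the filter of 1 CPM (adjusted p = 0.061) and with the replicate block (0.08).

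The scaffold pair SMARCC1 and SMARCC2, around which BAF assembles, stayed nearly level. SMARCC1 measured 330 and 338 CPM in CBL0137 libraries and 326 and 331 in DMSO libraries, and SMARCC2 measured 150 and 155 CPM in CBL0137 libraries and 154 and 148 in DMSO libraries. The conditions overlapped for both, with log2 changes of 0.02 ± 0.04 each. SMARCC1 held 68.7% and 68.5% of the reads of the pair in CBL0137 libraries and 68.0% and 69.2% in DMSO libraries, and by FPKM 61.8% and 60.3% in CBL0137 libraries and 58.7% and 60.0% in DMSO libraries. SMARCD2 (0.07), SMARCD3 (-0.02) and SMARCE1 (0.09) did not pass either. ACTL6B, the neuronal counterpart of ACTL6A, was below the count filter with 0 and 3 reads in CBL0137 libraries and 3 and 2 in DMSO libraries.

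Of the 9 subunits that set the form of the complex, 3 were lower at an adjusted p under 0.05, 1 was higher (DPF3, above) and 5 did not pass. PBAF is defined by ARID2, PBRM1 and BRD7, and all 3 were lower at an adjusted p under 0.05, as were 19.0% of all genes tested. PBRM1 and BRD7 did not pass with upper-quartile factors (adjusted p = 0.057 for PBRM1 and 0.17 for BRD7) or with library size alone (0.093 for PBRM1 and 0.25 for BRD7). ARID2 measured 105 and 102 CPM in CBL0137 libraries, against 125 and 122 CPM in DMSO libraries (-0.25 ± 0.05, edgeR adjusted p = 7.0e-05). PBRM1, which binds acetylated histones through a row of bromodomains, measured 74.9 and 74.7 CPM in CBL0137 libraries, against 83.5 and 84.9 CPM in DMSO libraries (-0.17 ± 0.05, edgeR adjusted p = 0.0087). BRD7, the bromodomain subunit of PBAF, measured 96.0 and 85.1 CPM in CBL0137 libraries, against 99.7 and 99.6 CPM in DMSO libraries (-0.14 ± 0.05, edgeR adjusted p = 0.041). The conditions did not overlap for any of them, as in 66.9% of all genes tested. ARID2 passed in 12 of 13 alternative fits. PBRM1 passed in 8 of 13 and not without DMSO replicate 2 (-0.17, adjusted p = 0.061). BRD7 passed in 4 of 13, and not without CBL0137 replicate 2 (-0.06), DMSO replicate 1 (-0.14) or DMSO replicate 2 (-0.15). BRD7 shares 41.9% of its exon bases with other genes, and its FPKM was higher in CBL0137 libraries, at 20.3 and 16.7, than in DMSO libraries, at 15.4 and 15.7.

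The ARID subunits of canonical BAF, ARID1A and ARID1B, did not pass. ARID1A, the subunit most often mutated in cancers, measured 233 and 237 CPM in CBL0137 libraries and 235 and 239 CPM in DMSO libraries (-0.01 ± 0.04, edgeR adjusted p = 0.84). ARID1B, its alternative, measured 89.2 and 98.3 CPM in CBL0137 libraries and 93.4 and 90.1 CPM in DMSO libraries (0.03 ± 0.05, edgeR adjusted p = 0.67). The conditions overlapped for both, and ARID1A held 72.3% and 70.7% of the reads of the pair in CBL0137 libraries and 71.5% and 72.6% in DMSO libraries. BRD9, the bromodomain subunit of non-canonical BAF, measured 62.3 and 64.2 CPM in CBL0137 libraries and 70.1 and 64.9 CPM in DMSO libraries (-0.09 ± 0.06, edgeR adjusted p = 0.20). BRD9 held 39.4% and 43.0% of the reads of BRD9 and BRD7 in CBL0137 libraries and 41.3% and 39.5% in DMSO libraries, which overlapped, while its share of their FPKM was 36.3% and 43.0% in CBL0137 libraries and 47.1% and 45.1% in DMSO libraries, which did not. With 2 libraries against 2, an exact two-sided permutation test of any such share cannot give a p below 0.333, and none was tested.

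Both ISWI motors were higher at an adjusted p under 0.05, and of 5 partner subunits 2 were higher, 0 lower and 3 did not pass. Of all genes tested, 17.5% were higher and 19.0% lower, and the group itself was not tested. SMARCA1 (SNF2L), encoded on the X chromosome, measured 166 and 167 CPM in CBL0137 libraries, against 144 and 136 CPM in DMSO libraries (0.26 ± 0.04, edgeR adjusted p = 2.9e-05). SMARCA5 (SNF2H), the motor of most ISWI complexes, measured 211 and 211 CPM in CBL0137 libraries, against 191 and 190 CPM in DMSO libraries (0.15 ± 0.04, edgeR adjusted p = 0.0032). The conditions did not overlap for either, as in 66.9% of all genes tested, and the ratios were 1.2 for SMARCA1 and 1.11 for SMARCA5. SMARCA5 did not pass without DMSO replicate 2 (0.14, adjusted p = 0.053). SMARCA1 held 44.1% and 44.2% of the reads of the pair in CBL0137 libraries and 42.9% and 41.7% in DMSO libraries, and its share of their FPKM was 56.5% and 56.9% in CBL0137 against 55.1% and 54.2% in DMSO libraries. Both scales gave a slightly larger share to SMARCA1 in CBL0137 libraries.

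Of the ISWI partners, RSF1, the histone-binding subunit of the RSF complex, measured 175 and 174 CPM in CBL0137 libraries, against 154 and 152 CPM in DMSO libraries (0.19 ± 0.04, edgeR adjusted p = 5.1e-04). BPTF, the large subunit of NURF that reads methylated histone H3, measured 150 and 160 CPM in CBL0137 libraries, against 148 and 137 CPM in DMSO libraries (0.12 ± 0.05, edgeR adjusted p = 0.040). RSF1 passed in 12 of 13 alternative fits. BPTF passed in 7 and lost its pass without CBL0137 replicate 2 (0.07) or DMSO replicate 2 (0.06). BAZ1B, the partner of SMARCA5 in the WICH complex, measured 314 and 309 CPM in CBL0137 libraries and 302 and 288 CPM in DMSO libraries (0.08 ± 0.04, edgeR adjusted p = 0.093). BAZ1A of ACF (0.00 ± 0.04) and BAZ2A of the nucleolar remodelling complex NoRC (-0.07 ± 0.04) did not pass.

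In the CHD family, 9 of 10 genes were tested, and CHD2 and CHD3 were lower, 0 were higher and 7 did not pass. Over all genes tested 19.0% were lower and 17.5% higher at an adjusted p under 0.05. CHD3, a NuRD motor, measured 364 and 383 CPM in CBL0137 libraries, against 425 and 411 CPM in DMSO libraries (-0.16 ± 0.04, edgeR adjusted p = 8.3e-04). CHD9 measured 147 and 140 CPM in CBL0137 libraries, against 133 and 135 CPM in DMSO libraries (0.10 ± 0.04, edgeR adjusted p = 0.081), which passed without CBL0137 replicate 2 (0.13, adjusted p = 0.040), and its FPKM overlapped between conditions. CHD1, the closest relative of CHD2 and a remodeller of transcribed genes, stood at -0.04 ± 0.05. CHD7, mutated in CHARGE syndrome, stood at -0.12 ± 0.05 (edgeR adjusted p = 0.086), and CHD6 and CHD8 at 0.01 each. Apart from CHD2, the tested genes of the family lay between -0.16 and 0.10, and differences between family members were not tested. CHD5, known from neurons, was below the count filter, with 5 and 13 reads in CBL0137 libraries and 10 and 4 in DMSO libraries.

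The counts of 4 members were very low for their FPKM. Members had a median of 175 counts per unit of FPKM, and the other 43 tested members ranged from 42.9 to 457. CHD1L had 2.53, CHD4 6.43, SMARCE1 12.2 and SRCAP 13.7. The share of exon bases that also belong to exons of other genes in GENCODE release 44 was 69.9% for CHD1L, 53.5% for CHD4, 18.9% for SMARCE1 and 76.5% for SRCAP. HTSeq left 9.19% to 9.5% of all reads unassigned as ambiguous, and the part of overlapping genes in these low counts was not tested. CHD4, the main NuRD motor, had counts of 326 and 320 in CBL0137 libraries and 333 and 345 in DMSO libraries, but FPKM of 49.5 and 54.0 in CBL0137 and 53.1 and 51.5 in DMSO libraries. Its FPKM was the second highest of the members in mean over libraries, and overlapped between conditions. Of the summed FPKM of CHD3 and CHD4, CHD3 held 36.9% and 35.2% in CBL0137 libraries and 40.0% and 37.7% in DMSO libraries. SRCAP, which loads H2A.Z, had FPKM of 12.1 and 12.8 in CBL0137 libraries and 11.3 and 10.8 in DMSO libraries. SMARCE1, a DNA-binding BAF subunit, had FPKM of 11.3 and 11.3 in CBL0137 libraries and 11.0 and 10.9 in DMSO libraries. CHD1L, a remodeller activated by poly(ADP-ribose), had FPKM of 17.6 and 17.0 in CBL0137 libraries and 17.4 and 15.6 in DMSO libraries. None of the 4 passed by counts or by FPKM.

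**Figure D4:**
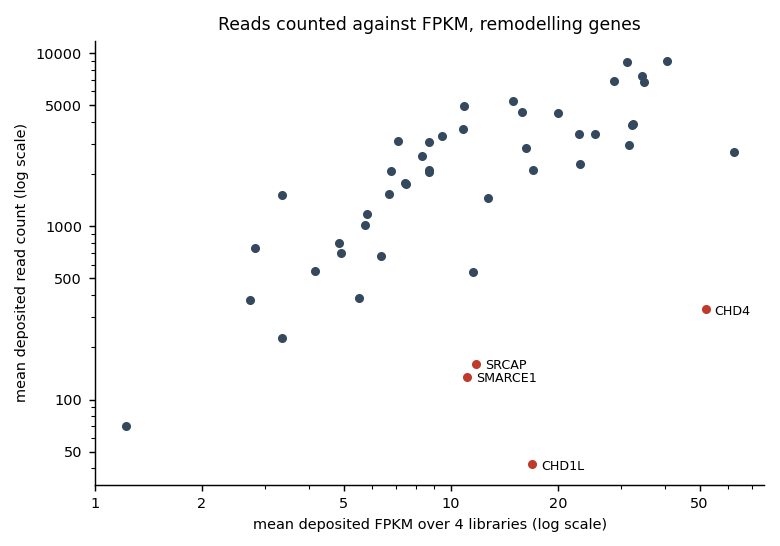
Mean deposited read count against mean deposited FPKM over 4 libraries for the 47 tested members, on log axes. CHD1L, CHD4, SMARCE1 and SRCAP, in red, lie far below the other members, at 2.53 to 13.7 counts per unit of FPKM against 42.9 to 457.

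The INO80 and SWR1 class did not pass in any member. INO80 measured 48.7 and 53.1 CPM in CBL0137 libraries and 54.0 and 55.3 CPM in DMSO libraries (-0.10 ± 0.06, edgeR adjusted p = 0.21). EP400, the motor of the TIP60 acetyltransferase complex, measured 214 and 219 CPM in CBL0137 libraries and 233 and 219 CPM in DMSO libraries (-0.06 ± 0.04, edgeR adjusted p = 0.26). SRCAP stood at 0.21 ± 0.15 by its few counts (edgeR adjusted p = 0.27). Neither did SMARCAL1, a helicase that reanneals DNA at stalled forks (0.09 ± 0.07), or SMARCAD1, a remodeller of silent chromatin and of broken ends (-0.01 ± 0.07), with edgeR adjusted p of 0.35 and 0.93. SMARCAL1 measured 31.0 and 31.1 CPM in CBL0137 libraries and 28.2 and 30.0 in DMSO libraries, and SMARCAD1 measured 35.7 and 36.1 in CBL0137 libraries and 35.7 and 36.6 in DMSO libraries.

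Of the 6 tested ARID genes outside BAF, 1 was lower, 0 were higher and 5 did not pass. The shares over all genes tested were 19.0% lower and 17.5% higher at an adjusted p under 0.05. ARID3A, a DNA-binding factor first known from B cells, measured 26.2 and 32.9 CPM in CBL0137 libraries, against 37.4 and 37.7 CPM in DMSO libraries (-0.34 ± 0.08, edgeR adjusted p = 0.0019). The CBL0137 libraries lay further apart than those of most members, and ARID3A did not pass without CBL0137 replicate 1 (-0.19, adjusted p = 0.072), while without CBL0137 replicate 2 it stood at -0.52. ARID4B, a subunit of the SIN3 histone deacetylase complex, measured 32.1 and 33.3 CPM in CBL0137 libraries and 29.3 and 31.4 CPM in DMSO libraries (0.11 ± 0.07, edgeR adjusted p = 0.25). ARID3B measured 15.9 and 16.6 CPM in CBL0137 libraries and 17.3 and 17.2 in DMSO libraries (-0.09 ± 0.10, edgeR adjusted p = 0.51). ARID4A, ARID5A and ARID5B stood between 0.03 and 0.06. ARID3C was below the count filter, with 13 and 6 reads in CBL0137 libraries and 9 and 5 in DMSO libraries.

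CHD9NB, matched by symbol only, rose, at a low level. It measured 4.52 and 3.71 CPM in CBL0137 libraries, against 2.32 and 2.04 CPM in DMSO libraries, or 95 and 86 reads against 53 and 46. The conditions did not overlap, and the log2 fold change was 0.91 ± 0.22 (edgeR adjusted p = 0.0021). The call was lost under DESeq2 (0.91, adjusted p = 0.052) and on log2(FPKM + 1) (0.51, adjusted p = 0.083), with adjusted p between 4.0e-04 and 0.083 over its alternatives. CHD9NB (ENSG00000277639) lies on chromosome 16 from 53069602 to 53086809 on the minus strand in GRCh37, and CHD9 from 53088903 to 53363062 on the plus strand. None of its exon bases are shared with other genes in that annotation.

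Levels can be compared between members per length only, by the deposited FPKM. ACTL6A stood highest, at 54.0 ± 1.31 in CBL0137 and 71.0 ± 3.84 in DMSO libraries (mean ± SD, n = 2 each, here and below), and the conditions did not overlap. CHD4 measured 51.7 ± 3.17 in CBL0137 and 52.3 ± 1.15 in DMSO libraries. SMARCA4 came next at 35.6 ± 12.4 in CBL0137 and 45.2 ± 10.9 in DMSO libraries, a spread wider than that of its counts, so its order relative to BAZ1B (36.7 ± 0.0296 in CBL0137 and 33.2 ± 1.79 in DMSO) and SMARCC1 (35.4 ± 0.445 in CBL0137 and 33.6 ± 0.0492 in DMSO) cannot be told. At the low end of the tested members were CHD9NB, ARID3B, ARID3A, DPF1 and CHD7, with mean FPKM from 0.827 to 3.40 in either condition. DPF3 was also at this end in DMSO libraries (3.08 ± 0.273), and stood at 5.24 ± 0.424 in CBL0137 libraries. The median over tested members was 10.9, against 6.71 over 13547 tested protein-coding genes. Members were also long, with a median span of 75 kb against 33.5 kb for tested protein-coding genes. Spearman's rho between span and log2 fold change was 0.0205 across the 47 members, which share the same 4 libraries. It was -0.0213 across the protein-coding genes, so neither showed a trend with length. Between mean FPKM and log2 fold change, rho was -0.0886 across the members and -0.255 across the protein-coding genes. The part of level in the members' changes was not tested.

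By FPKM the directions were less settled than by counts. In the limma test on log2(FPKM + 1), 5 members passed an adjusted p of 0.05, namely CHD2, SMARCB1 and ACTL6A lower and DPF3 and SMARCA1 higher. The share of all genes passing this limma test is not given here. The sign differed from that of the counts in 10 of 47 members, of which SMARCA2 and BRD7 had passed by counts. FPKM and counts are separate products of the same reads, so their agreement is no replication.

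Other subunits of the same complexes, outside the rule, were read from the same fit as context. The list holds 60 subunits, 58 of them tested. None was called by edgeR at 1.5-fold, against 9.61% of all genes tested, and DESeq2 and limma-voom also called 0. An unadjusted edgeR p under 0.05 was reached by 28 of the 58, and by 7757 of all 17309 genes tested. At an adjusted p under 0.05 and any fold 5 were higher and 16 lower, together 36.2% of the list against 36.5% of all genes tested (17.5% higher and 19.0% lower), with a median log2 fold change of -0.08 against 0.003 for all genes tested. In NuRD, RBBP7, a histone-binding subunit that PRC2 also uses, measured 135 and 128 CPM in CBL0137 libraries, against 191 and 192 CPM in DMSO libraries (-0.54 ± 0.04, edgeR adjusted p = 1.3e-10), and MTA3, a scaffold of NuRD, was higher (0.26 ± 0.05, edgeR adjusted p = 2.5e-04). Among 15 subunits of SRCAP and TIP60 complexes, 6 were lower and 1 higher, beside the same shares of all genes, among them BRD8, a bromodomain subunit of TIP60 (-0.40 ± 0.05), and MRGBP (-0.36 ± 0.06). In INO80, MCRS1 was lower (-0.26 ± 0.06) and the actin-related ACTR8 higher (0.37 ± 0.09). In BAF, PHF10, a PHD finger subunit of PBAF, was lower (79.6 and 81.7 CPM in CBL0137 libraries, against 87.6 and 94.1 CPM in DMSO libraries; -0.17 ± 0.05), as was BCL7A (-0.17 ± 0.06). PHF10 did not pass without DMSO replicate 2 (-0.13), and BCL7A passed in 6 of 13 alternative fits and not without CBL0137 replicate 1 (-0.14), DMSO replicate 1 (-0.17) or DMSO replicate 2 (-0.18). None of the 4 tested ISWI partners on this list passed, with POLE3 at -0.11 ± 0.05 and CECR2 at 0.36 ± 0.19. POLE3 passed without CBL0137 replicate 2 (-0.14), and CECR2 without CBL0137 replicate 1 (0.51) or DMSO replicate 1 (0.63). Of 5 other SNF2 enzymes and partners, 3 were lower and 1 higher. TTF2 (-0.27 ± 0.05), HELLS (-0.23 ± 0.06), a remodeller needed for DNA methylation, and ERCC6 (-0.34 ± 0.13), which acts in transcription-coupled repair, were lower. DAXX, a histone H3.3 chaperone that works with ATRX, was higher (0.17 ± 0.05), and ATRX stood at 0.01 ± 0.04. ERCC6 did not pass without CBL0137 replicate 1 (-0.15) or DMSO replicate 2 (-0.30), nor did DAXX without DMSO replicate 2 (0.16).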

How the data were processed

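Per the labels and the submitters' processing notes, Trim Galore removed adapters, HISAT2 placed reads on hg19, and HTSeq 0.11.1 gave the counts the authors deposited. The notes also name DESeq2 1.26.0 and a mouse build of no stated role. The deposited FPKM were computed by the authors from reads per gene, gene length and depth, per the labels; the tool and the annotation release are not given in the sources used here, nor whether libraries kept strand. In 1 CBL0137 library 4129 genes had 0 counts and FPKM above 0, so FPKM do not derive from these counts.

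Rows that name no gene (6, holding 23.7% to 24.8% of reads) were left out. Ensembl IDs were matched to GENCODE release 44 on GRCh37, which named 58524 of 60617. Groups came from the titles. The test was edgeR 4.0.16 (R 4.3.3) with TMM factors, filterByExpr (minimum count 10) and a quasi-likelihood test for CBL0137 over DMSO, adjusted over all genes. The common biological coefficient of variation was 3.18%. CPM are TMM scaled unless stated, and an SE is the log2 fold change over the square root of F. Tested on simulated data of this comparison (16880 genes), an adjusted p under 0.05 at any fold was reached by 76 of the 99 genes given a 2-fold change, by 52 of the 98 given 1.3-fold, and by 4 of the 16683 left alone. The simulation changed a far smaller share of genes than passed in the real data, so its adjusted p limit was stricter. Its counts were drawn with a spread set by level alone, without differences in spread between genes. Its rates thus describe the simulated setting and not the real comparison. Other tools were limma 3.58.1, DESeq2 1.42.0 and Python 3.11.15.

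Members and lists were chosen with earlier results of these data known. Genes named are the called members, up to 3 per role group by adjusted p, paralogue pairs, members below the filter, and, of related subunits, up to 2 per complex. Other members, DAXX, ERCC6, ATRX, CHASERR and the genes listed by level were added after their values were seen. Alternatives were other scalings, filters, tests and fold limits, each library left out, the replicate block, and a limma-trend fit of log2(FPKM + 1), kept to genes that reached an FPKM of 1 in 2 libraries.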

Additional observations from a re-analysis of the deposited data

How the results depend on the processing

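RLE factors, limma-voom, no count filter and a filter of 1 CPM kept every count of members called or passing an adjusted p of 0.05 within 1.5 times of its TMM value. Members called higher numbered 2 instead of 1 under library size alone and 0 under DESeq2, and 1 to 2 with a library left out (2 without CBL0137 replicate 1). Members passing at any fold numbered 10 higher and 7 lower with either upper-quartile factors or library size alone, and 2 higher and 3 lower on log2(FPKM + 1), against 6 and 11. At a fold limit of 1.2, 2 members rose and 3 fell, and at 2-fold 0 did either way. Related subunits called higher were 0 to 1 with a library left out (1 without DMSO replicate 1, CECR2), and 2 higher and 7 lower at 1.2-fold. All genes called higher and lower were 1191 and 472, against 593 higher under DESeq2, 388 and 189 on log2(FPKM + 1), 2237 and 1993 at 1.2-fold, and 605 and 131 at 2-fold. The cause was not tested, except that a fold limit or fewer libraries changes a count by construction.

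Signs turned as follows among the 47 tested members and the related subunits named. On log2(FPKM + 1), 10 members turned: BRD7 0.23, SMARCA2 0.48, CHD9 -0.05, SMARCAD1 0.07, SMARCC2 -0.02, SMARCD3 0.05, DPF1 0.03, CHD1 0.08, CHD7 0.01 and BAZ2A 0.08, as did POLE3 at 0.07. With upper-quartile factors and with library size alone, SMARCAD1 was 0.04 and 0.05, ARID1A 0.04 and 0.05, CHD4 0.02 and 0.03, CHD1 0.01 and 0.03, DPF1 0.02 and 0.04, and SMARCD3 0.03 and 0.04. With a library left out, ARID1B ranged from -0.04 to 0.10, SMARCC2 from -0.02 to 0.04, CHD4 from -0.12 to 0.05, ARID5B from -0.03 to 0.07, CHD1L from -0.10 to 0.21, CHD6 from -0.02 to 0.02, CHD8 from -0.01 to 0.03, DPF1 from -0.15 to 0.09, SMARCD3 from -0.11 to 0.06 and SMARCE1 from -0.02 to 0.20. Of these, only BRD7 and SMARCA2 had passed an adjusted p of 0.05. Deviations of same-numbered replicates from their condition means had r = -0.027 across genes. With 2 libraries per condition, both replicate numbers give the same r by construction. This value cannot decide whether same-numbered samples were paired. With the replicate number as a block, 1 member rose, 1 fell, and 5 were higher and 9 lower at any fold. CPM levels follow the TMM factors, and paralogue shares differ between counts and FPKM as reported. With 2 libraries per condition, genes with few reads, such as CHD5 or ARID3C, could not be tested.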

Other observations

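CHASERR, a long noncoding RNA gene just upstream of CHD2 that is known to restrain CHD2 in mouse and human cells, was looked up after the value of CHD2 was seen. It measured 15.1 and 13.9 CPM in CBL0137 libraries, against 15.4 and 17.3 CPM in DMSO libraries (log2 fold change -0.17 ± 0.10, SE; edgeR adjusted p = 0.21), so it did not pass the test. In GRCh37 it lies on chromosome 15 from 93362770 to 93442931 on the same strand as CHD2, and its span overlaps the start of that gene. Reads of shared exon bases may be left out of both counts. For CHD2, exons of all other genes together cover 0.579% of its exon bases. The part of such reads in either count was not tested.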
